A study of Rattus norvegicus with 8 samples.

Results

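Leukocyte and phagocyte signalling genes were followed in the basolateral amygdala of rats that were developing epilepsy. The set holds 37 genes of haematopoietic cells, grouped by role into surface receptors and integrins, scavenger and lectin receptors, transcription factors, lysosomal and secreted effectors, kinases and phosphatases, adaptors and exchange factors, and regulators of actin and cell shape. Members were the probe sets annotated to one of these symbols alone, and a gene with several was read by the probe set with the highest mean log2 signal. Of the 37 genes, 32 had such a probe set, out of 14217 genes named on the array, and 29 of them lay above the filter on dim probe sets and were tested. Spi1, Ikzf1, Msr1, Dock2 and Was had none and have no value here. Itgam, Cd4 and Cd163 had mean signals under the filter level (log2 4.35, a signal of 20.3) and are given as values.

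Laser-microdissected tissue of the basolateral amygdala from the operated side gave the RNA, which was amplified before hybridisation. Epileptogenic rats had status epilepticus, a prolonged seizure, induced by electrical stimulation of the amygdala and showed no spontaneous seizures during the study, while control rats were operated and not stimulated. On day 8 after stimulation every rat was trained in 2 trials with a footshock of 1.5 mA lasting 1 s and a 75 dB tone lasting 20 s. Paired training let the tone end in the shock, unpaired training put the shock first, and tissue was taken 3 h later. Status and training give 4 groups of 4 rats, each with 2 arrays (A and B), and an array carries the pooled RNA of 2 rats. Strain, sex and age are not given in the sources used here. Every rat also had 5 habituation sessions (10 min). All groups had the surgery, the habituation, the shock and the tone. An effect of epileptogenesis that precedes training and one that training brings out cannot be told apart. Median signals of the 8 arrays ran from 29.0 to 43.2, and the number of arrays limits the precision.

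Microglia are the resident phagocytes of the brain and descend from the haematopoietic lineage, so they share with blood leukocytes a common set of surface and signalling proteins. In this set, immune receptors with tyrosine-based motifs are phosphorylated by Src-family kinases such as Lyn. They recruit Syk, and adaptors such as Blnk and Lcp2 then assemble Btk and Vav1. Phosphatases such as Ptpn6 and Inpp5d oppose that signal, and cytoskeletal regulators turn it into changes of the actin skeleton during migration and phagocytosis. After status epilepticus, microglia are known to change shape and gene expression in the affected regions.

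The comparison of 4 epileptogenic with 4 control arrays asks how far these genes differ during epileptogenesis. Of the 29 tested members 20 were higher in epileptogenic rats (limma, Benjamini-Hochberg adjusted over 18625 probe sets, threshold 0.05) and 0 were lower, against 2.81% of all tested probe sets called higher and 0.827% called lower. The 20 differences lay between 1.17 (2.25-fold) and 3.49 on the log2 scale. The remaining 9 members had differences above 0 that did not pass. The median of the 29 differences was 1.59, beside a median of -0.11 over all tested probe sets. The filter uses the mean of all 8 arrays, so a gene that is dim in controls can enter through its epileptogenic signal: this applies to Cd37, Cd86, Clec12a, Btk and Tagap, whose control means lay under the filter level. Differences of these 5 stand against control readings at the dim end and give no firm fold. Of the other 24 members 17 were higher, by up to 2.89 (7.42-fold, Ptprc), beside 2.70% of the probe sets with a control mean above that level. Ptpn6 is among these 17 with a control mean at the filter level (4.3495 against 4.345). With 3 of 4 control arrays under that level, its fold is not firm either. Conversely Cd4, with a control mean of 4.45, fell under the filter through its epileptogenic signal and was not among the tested members. Without the filter 20 of 32 members were higher and 0 lower, against 1.51% of all probe sets higher and 0.348% lower.

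The 4 epileptogenic arrays lay above the 4 control arrays in 25 of the 32 measured members and below them in 1, Cd4. Over all probe sets the groups separated in this way in 5.08% (higher) and 5.52% (lower). Each member's signal was also set against its own control mean and averaged over the 29 tested members. On the log2 scale, this mean was 0.36 and -0.03 in the control unpaired arrays A and B, and -0.38 and 0.04 in the control paired arrays. It was 1.62 and 2.09 in the epileptogenic unpaired arrays, and 1.73 and 1.85 in the epileptogenic paired arrays. The 24 members with a control mean above the filter level were also averaged alone. Control arrays then gave 0.21 and 0.07 (unpaired) and -0.25 and -0.02 (paired). Epileptogenic arrays gave 1.45 and 1.85 (unpaired) and 1.52 and 1.68 (paired), lower than over all 29. By either mean both epileptogenic groups stood above both control groups, and control paired array A was the lowest of the 8.

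**Figure D1:**
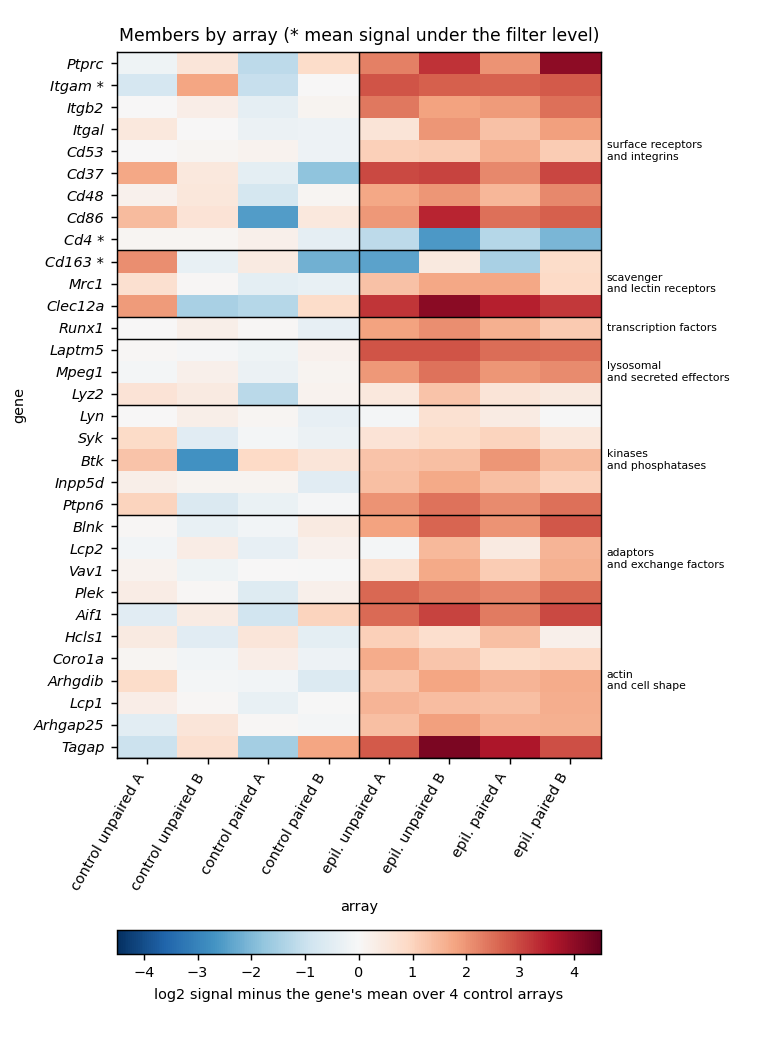
Log2 signal of each of the 32 measured members (rows, by role) on each of the 8 arrays (columns), as the difference from the gene's mean over the 4 control arrays (colour, log2 units). Most rows turn red across all 4 epileptogenic arrays. Cd4 is lower there, and the conditions overlap in 6 members: Cd163, Lyz2, Lyn, Syk, Lcp2 and Hcls1.

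With 1 array left out at a time, 10 to 18 members were called, among them up to 1 that was not among the 20. Dropping control paired A left 13. Dropping epileptogenic unpaired B left 10, and dropping array A or B of the epileptogenic paired group left 11 or 12. The other 4 arrays left between 14 and 18. Itgb2, Cd48, Runx1, Laptm5, Mpeg1, Blnk, Plek, Aif1 and Lcp1 passed in all 8 of these fits. With the replicate letter as a block 24 members were higher, beside 7.58% of all probe sets higher and 8.65% lower, and the 4 added were Itgal, Cd86, Vav1 and Hcls1. The median difference of the 29 members was 1.65 among the A arrays and 1.93 among the B arrays.

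In the values that follow, each pair gives array A and then array B, in log2 signal. Among the surface receptors and integrins 5 of 7 tested genes were higher. Itgb2, the common beta chain of the leukocyte integrins, read 6.09 and 6.40 in control unpaired, 5.67 and 6.19 in control paired, 8.48 and 7.88 in epileptogenic unpaired, and 8.02 and 8.57 in epileptogenic paired rats. The groups were separated by more than 1 log2 unit, and the difference was 2.15 ± 0.25 (SE; 4.44-fold, adjusted p = 0.00353). Cd48, a receptor of the SLAM family, had signals of 7.16 and 7.46, then 6.18 and 7.05 in control rats, and of 8.71 and 8.96, then 8.47 and 9.14 in epileptogenic rats. Control paired A was its lowest array, and the groups did not overlap (1.85 ± 0.26, 3.62-fold, adjusted p = 0.00650).

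Ptprc encodes CD45, the tyrosine phosphatase that marks leukocytes. Its signals were 6.74 and 7.48, then 5.76 and 7.77 in controls, and 9.21 and 10.19, then 8.96 and 10.95 in epileptogenic rats. Array B was above array A in each group, by 1.43 log2 units on average. The difference between conditions was 2.89 ± 0.53 (7.42-fold, adjusted p = 0.0210, 8.10e-05 with the block), and the A arrays and B arrays taken apart gave 2.83 and 2.95. The adjusted p rose above 0.05 in 4 of the 8 fits with an array left out. A second Ptprc probe set, dim and under the filter level, showed -0.20 ± 1.12. The tetraspanins Cd53 and Cd37 were higher as well, with differences of 1.25 ± 0.24 and 2.80 ± 0.49 (adjusted p = 0.0227 and 0.0184), and lost the call in 7 and 4 of those fits. For Cd37, 3 of 4 control arrays lay under the filter level, so it entered the test through its epileptogenic signal and gives no firm fold.

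The integrin alpha chain gene Itgal, which pairs with Itgb2 in LFA-1, had signals of 5.94 and 5.47, then 5.18 and 5.24 in controls, and of 6.02 and 7.45, then 6.76 and 7.29 in epileptogenic rats. The groups did not overlap, but epileptogenic unpaired A lay only just above control unpaired A. Its difference of 1.43 ± 0.34 missed the threshold (adjusted p = 0.0527) and passed with the block (0.0102). Cd86, a co-stimulatory ligand for T cells, read 4.79 and 3.95, then 0.83 and 3.82 in controls, and 5.30 and 6.76, then 5.84 and 6.04 in epileptogenic rats. Control paired A was far below the other controls. The difference was 2.64 ± 0.66 with all arrays (adjusted p = 0.0661, 0.0130 with the block) and 1.89 without control paired A.

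Itgam, the alpha chain of the complement receptor Mac-1 (CD11b), could not be tested because its mean fell under the filter level. Its signals were 1.59 and 4.12, then 1.29 and 2.37 in control rats, all under that level. In epileptogenic rats they were 5.17 and 5.02, then 4.99 and 5.09, all above it and with an SD of 0.08. Cd4, the co-receptor of helper T cells that rat macrophages also carry, went the other way. Its control mean of 4.45 lay just above the filter level, and the mean over all arrays fell under it through the epileptogenic signals. Cd4 read 4.55 and 4.54, then 4.66 and 4.03 in controls, and 3.27 and 1.86, then 3.15 and 2.40 in epileptogenic rats. In the fit without the filter, the difference was 2.72 ± 0.68 for Itgam (adjusted p = 0.0776) and -1.77 ± 0.61 for Cd4 (adjusted p = 0.210), and neither passed.

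**Figure D2:**
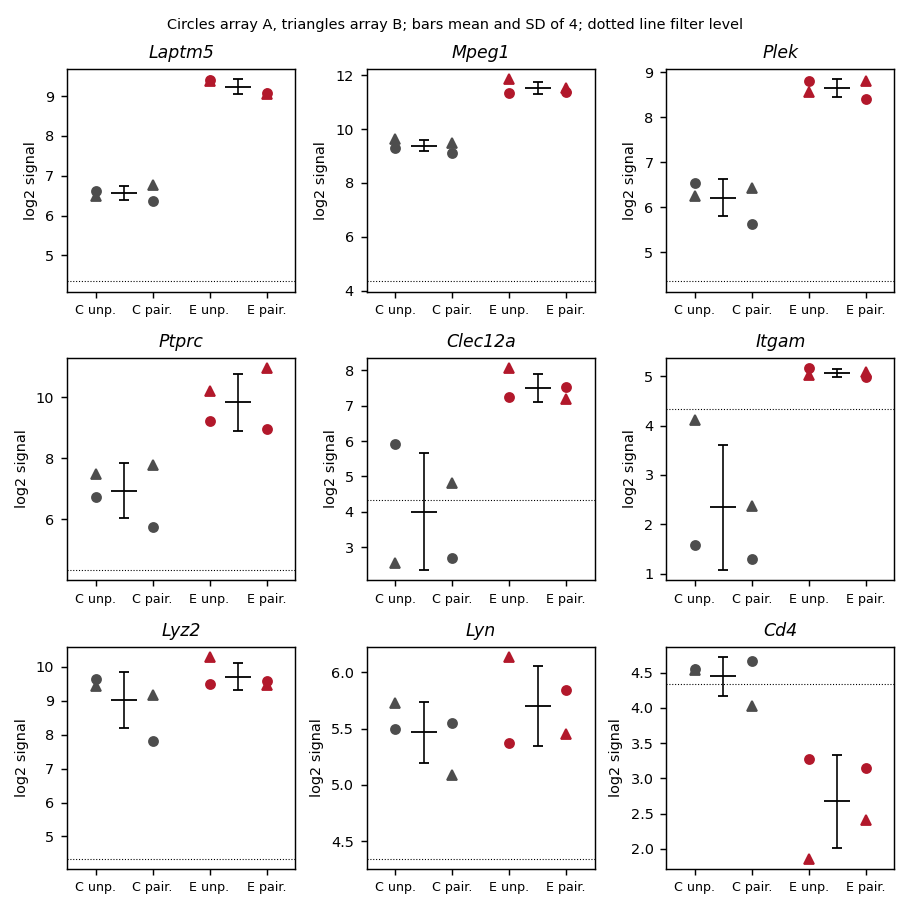
Log2 signal of 9 members by group (C control, E epileptogenic, unp. unpaired, pair. paired), with circles for array A, triangles for array B, black bars for the mean ± SD of 4 arrays and a dotted line at the filter level of 4.35. In Laptm5, Mpeg1, Plek, Ptprc, Clec12a and Itgam the 4 epileptogenic arrays lie above the 4 control arrays; in Lyz2 and Lyn the groups overlap, and in Cd4 the epileptogenic arrays lie lower.

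Scavenger and lectin receptors bind modified proteins, glycans or damaged cells. Mrc1, the mannose receptor, is typical of macrophages at the borders and vessels of the brain, and its signals were 8.58 and 7.92, then 7.41 and 7.50 in controls, against 9.17 and 9.60, then 9.59 and 8.75 in epileptogenic rats. It was higher by 1.42 ± 0.25 (2.68-fold, adjusted p = 0.0184), and control unpaired A lay close below epileptogenic paired B. The call was lost in 5 of the 8 fits with an array left out. Clec12a, an inhibitory C-type lectin of myeloid cells, read 5.93 and 2.56, then 2.72 and 4.82 in controls, and 7.24 and 8.06, then 7.52 and 7.18 in epileptogenic rats. Its controls were scattered (SD 1.64, n = 4) and its epileptogenic arrays close together (SD 0.40). The difference was 3.49 ± 0.71 (adjusted p = 0.0299), but 2 of the 4 control arrays lay under the filter level, and with an offset of 16 added to the signal it was 2.45. It ranged from 2.65 to 4.33 with single arrays left out and lost the call in 5 of those 8 fits. Cd163, the haemoglobin scavenger receptor of border macrophages, read 5.78 and 3.33, then 4.06 and 1.52 in controls, and 1.27 and 4.13, then 2.22 and 4.49 in epileptogenic rats. The groups overlapped, and the difference was -3.17 among the A arrays and 1.88 among the B arrays.

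Of the transcription factors only Runx1, which acts early in blood cell development and in microglia, was measured. Its signals were 5.27 and 5.52, then 5.28 and 4.88 in controls, and 7.04 and 7.33, then 6.82 and 6.42 in epileptogenic rats. The groups did not overlap, and the difference was 1.67 ± 0.24 (3.17-fold, adjusted p = 0.00762). A dimmer probe set of the gene showed 0.76 ± 0.39 and did not pass (adjusted p = 0.344). Spi1, the myeloid master regulator PU.1, could not be read here. PU.1 binds purine-rich sites with a GAGGAA core, and these letters were searched for on both strands in the 250 bases before the transcription start (RefSeq, GRCr8), which were at hand for 26 members.

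GAGGAAGT stood in the promoter window of 4 of the 26 members (15.4%) and in 2.04% of the 33469 promoters of the table, and the shorter GAGGAA, which every GAGGAAGT contains, in 14 of 26 (53.8%) and in 23.3%. The 4 windows with the longer word are shown because their genes were measured here, Cd37, Cd53 and Arhgap25 being called higher and Vav1 with the block alone. Laptm5, the member with the smallest adjusted p, is added with the shorter word. Capitals mark the word, which reads ACTTCCTC or TTCCTC where it lies on the opposite strand. The Arhgap25 stretch also holds GAGGAA on the same strand, 22 to 27 bases before the start, left in lower case. The match lay 72 to 79 bases before the start in Cd37 (chr1:104860826-104860893, minus strand), 39 to 46 in Cd53 (chr2:197087905-197087972, minus strand) and 35 to 42 in Arhgap25 (chr4:121532298-121532365, minus strand). It lay 45 to 52 bases before it in Vav1 (chr9:2248873-2248940, plus strand) and 58 to 63 in Laptm5 (chr5:148371787-148371852, plus strand). A match describes letters and not a bound site.
Cd37: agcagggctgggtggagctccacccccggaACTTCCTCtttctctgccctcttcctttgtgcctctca
Cd53: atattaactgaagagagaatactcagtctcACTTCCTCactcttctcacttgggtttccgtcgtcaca
Arhgap25: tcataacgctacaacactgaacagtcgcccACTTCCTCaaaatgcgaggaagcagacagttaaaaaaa
Vav1: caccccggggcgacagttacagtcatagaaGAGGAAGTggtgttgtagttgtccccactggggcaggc
Laptm5: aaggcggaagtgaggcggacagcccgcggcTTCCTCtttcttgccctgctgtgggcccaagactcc

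Among the lysosomal and secreted effectors 2 of 3 genes were higher, with the smallest p-values of the set. Laptm5, a lysosomal membrane protein of haematopoietic cells, read 6.63 and 6.50, then 6.37 and 6.76 in controls, and 9.41 and 9.38, then 9.08 and 9.06 in epileptogenic rats. Both conditions were tight (SD 0.17 and 0.19, n = 4 each), and the difference was 2.67 ± 0.19 (6.35-fold, adjusted p = 0.000950), between 2.57 and 2.76 with single arrays left out. A second Laptm5 probe set also passed, at 1.52 ± 0.24 (adjusted p = 0.0123).

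Mpeg1, a pore-forming protein of macrophage phagosomes, had signals of 9.32 and 9.61, then 9.12 and 9.50 in controls, and of 11.33 and 11.84, then 11.37 and 11.52 in epileptogenic rats. The difference was 2.13 ± 0.19 (4.37-fold, adjusted p = 0.00208). A second Mpeg1 probe set, dim and under the filter level, showed 0.96 ± 0.99, with overlapping groups. Lyz2, the bacteriolytic enzyme of phagocytes, was bright in both conditions. It read 9.65 and 9.43, then 7.82 and 9.17 in controls, and 9.49 and 10.30, then 9.58 and 9.46 in epileptogenic rats. Control unpaired A lay above 3 of the 4 epileptogenic arrays, and the difference of 0.69 ± 0.30 did not pass (adjusted p = 0.266). Its 95% interval ran from 0.01 to 1.38, so a 2.60-fold increase lay within it.

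Among the kinases and phosphatases 2 of 5 genes were higher, Ptpn6 and Inpp5d, and Lyn, Syk and Btk did not pass. Ptpn6, the tyrosine phosphatase SHP-1 that is recruited by inhibitory receptors, read 5.35 and 3.69, then 4.07 and 4.29 in controls, and 6.37 and 6.81, then 6.48 and 6.82 in epileptogenic rats. The groups did not overlap, and the difference was 2.27 ± 0.38 (4.82-fold, adjusted p = 0.0157), with 3 of 4 control arrays under the filter level. Inpp5d, the lipid phosphatase SHIP1, read 5.97 and 5.83, then 5.85 and 5.23 in controls, and 7.09 and 7.43, then 7.09 and 6.77 in epileptogenic rats. It was higher by 1.38 ± 0.24 (2.59-fold, adjusted p = 0.0174). With an array left out, Ptpn6 lost the call in 3 and Inpp5d in 4 of the 8 fits.

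Lyn, the Src-family kinase, had the smallest difference of the tested members. Its signals were 5.50 and 5.73, then 5.55 and 5.09 in controls, and 5.38 and 6.14, then 5.85 and 5.45 in epileptogenic rats. The groups overlapped, and the difference of 0.24 ± 0.29 (adjusted p = 0.724) had a 95% interval from -0.42 to 0.90, which leaves a change of up to 1.86-fold. Syk, the kinase that docks on phosphorylated receptor motifs, read 6.68 and 5.31, then 5.74 and 5.57 in controls, and 6.45 and 6.66, then 6.81 and 6.34 in epileptogenic rats. Only control unpaired A reached the epileptogenic range (0.74 ± 0.32, adjusted p = 0.258, 95% interval from 0.02 to 1.46).

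Btk, a Tec-family kinase downstream of Syk, had 1 control array far below the rest. It read 4.97 and 0.94, then 4.55 and 4.22 in controls, and 4.97 and 5.03, then 5.67 and 5.09 in epileptogenic rats. The difference was 1.52 ± 0.77 with all arrays (adjusted p = 0.336) and 0.51 without control unpaired B. Whether phosphatases and kinases differ from each other was not tested.

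Of the adaptors and exchange factors Plek and Blnk were higher. Plek, pleckstrin, a substrate of protein kinase C in platelets and leukocytes, read 6.54 and 6.25, then 5.62 and 6.42 in controls, and 8.80 and 8.55, then 8.41 and 8.81 in epileptogenic rats. The difference was 2.43 ± 0.24 (5.40-fold, adjusted p = 0.00237), the groups lying apart by more than 1 log2 unit. Blnk, the adaptor that links Syk to Btk, read 5.44 and 5.06, then 5.27 and 5.79 in controls, and 7.20 and 8.02, then 7.39 and 8.17 in epileptogenic rats, higher by 2.31 ± 0.29 (4.95-fold, adjusted p = 0.00419).

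Vav1, an exchange factor for Rac, had signals of 4.56 and 4.24, then 4.45 and 4.41 in controls, and of 5.10 and 6.11, then 5.56 and 6.00 in epileptogenic rats. The groups did not overlap, but the control arrays lay near the filter level, and the difference of 1.28 ± 0.35 passed only with the block (adjusted p = 0.0856 and 0.0260). Lcp2, the adaptor SLP-76, depended on the probe set. The one that reads the gene here gave 4.88 and 5.35, then 4.64 and 5.21 in controls, and 4.93 and 6.48, then 5.42 and 6.56 in epileptogenic rats, with overlapping groups and a difference of 0.83 ± 0.42 (adjusted p = 0.340). Its dimmer probe set showed 2.12 ± 0.54 (adjusted p = 0.0669, 0.0179 with the block). That probe set had a control mean of 3.33, under the filter level, and an epileptogenic mean of 5.46. It entered the test through its epileptogenic signal and gives no firm fold.

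Regulators of actin and cell shape were higher in 6 of 7 tested genes. Aif1 encodes IBA1, the calcium-binding protein used to stain microglia, and read 4.68 and 5.55, then 4.34 and 6.18 in controls, and 7.73 and 8.23, then 7.54 and 8.15 in epileptogenic rats. Array B was above array A in each group, and the difference of 2.72 ± 0.41 (6.60-fold, adjusted p = 0.00893) was larger than the mean step between letters of 0.95. Another Aif1 probe set had the opposite sign, at -0.51 ± 0.36, and did not pass (adjusted p = 0.498). Lcp1, the actin-bundling L-plastin, had signals of 7.89 and 7.62, then 7.26 and 7.55 in controls, and of 9.11 and 8.96, then 8.95 and 9.21 in epileptogenic rats (1.48 ± 0.19, 2.79-fold, adjusted p = 0.00454).

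Coro1a (coronin, which binds actin at the leukocyte cortex) was higher by 1.17 ± 0.21, Arhgdib (a cytoskeletal regulator of haematopoietic cells) by 1.56 ± 0.29 and Arhgap25 (a Rac inhibitor of phagocytes) by 1.59 ± 0.27. Their adjusted p-values were 0.0199, 0.0208 and 0.0170, and each was lost in 5 of the 8 fits with an array left out. Tagap, first known from activated T cells, was higher by 3.39 ± 0.74 (adjusted p = 0.0407), with 3 of 4 control arrays under the filter level, and by 2.01 with an offset of 16. Its control arrays ranged from 1.60 to 4.92 and its epileptogenic arrays from 5.89 to 7.37, and it lost the call in 7 of the 8 fits. Hcls1, a cortactin-like actin regulator, read 6.12 and 5.20, then 6.27 and 5.26 in controls, and 6.79 and 6.47, then 7.08 and 5.95 in epileptogenic rats. Array A was above array B in each group, the groups overlapped, and the difference of 0.86 ± 0.36 passed only with the block (adjusted p = 0.243 and 0.0226).

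**Figure D3:**
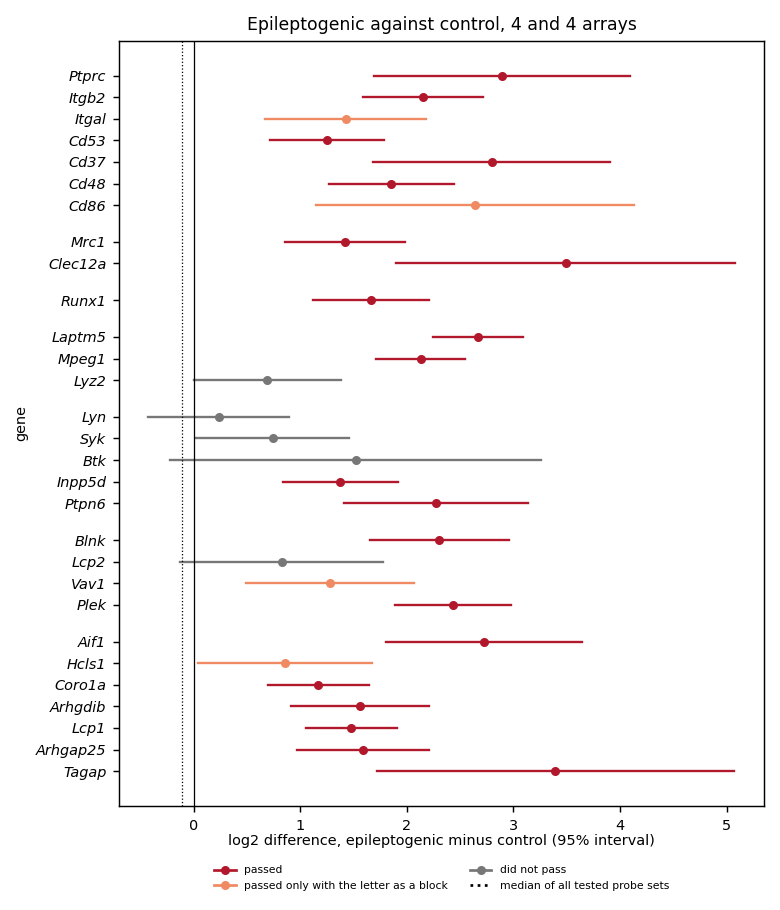
Log2 difference between 4 epileptogenic and 4 control arrays for the 29 tested members (points, with 95% intervals from the limma fit as bars), in order of role, in red where the test passed, orange where it passed only with the block and grey where it did not. The 20 called members lie between 1.17 and 3.49, and the dotted line at -0.11 is the median of all tested probe sets.

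Array B stood above array A in all 4 groups in 5 of the 29 members (Ptprc, Cd48, Mpeg1, Lcp2 and Aif1), and below it in Hcls1 alone. Over all tested probe sets the shares were 19.3% and 21.2%, beside 17.2% and 3.45% in the members. The labels do not say what the letters stand for.

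After unpaired training 3 of 29 members were higher in epileptogenic than in control rats (limma; 0.290% of all probe sets higher and 0.0268% lower), and after paired training 6 were (0.521% higher and 0.0107% lower). Laptm5, Mpeg1 and Plek passed after both trainings, and Itgb2, Lcp1 and Cd48 after paired training. Laptm5 was higher by 2.83 ± 0.27 after unpaired and 2.50 ± 0.27 after paired training (adjusted p = 0.0150 and 0.0215), Mpeg1 by 2.12 ± 0.26 and 2.13 ± 0.26, and Plek by 2.28 ± 0.34 and 2.58 ± 0.34. Itgb2 showed 1.94 ± 0.35, which did not pass, and 2.36 ± 0.35 (adjusted p = 0.0607 and 0.0305). With the block 16 members passed after unpaired and 19 after paired training (3.40% of all probe sets higher and 3.61% lower after unpaired, 3.45% higher and 1.17% lower after paired training). Differences were above 0 in all 29 tested members after either training, with medians of 1.57 and 1.82.

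These counts changed when single arrays were left out, in fits where 1 group keeps a single array and is taken to vary like the others. After unpaired training 0 members passed without control unpaired A, control unpaired B, epileptogenic unpaired A or epileptogenic unpaired B. After paired training 0 passed without control paired A, epileptogenic paired A or epileptogenic paired B, and 4 without control paired B. The differences moved less than the calls: over these fits that of Laptm5 was 2.77 to 2.89 after unpaired and 2.31 to 2.70 after paired training, and that of Plek 2.14 to 2.43 and 2.18 to 2.98. Both counts were also 0 with median centring and without the intensity trend.

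The interaction of training and epileptogenesis passed in 0 of 29 members (limma, 0% of all probe sets; at an unadjusted p under 0.05, 0 members and 1.47% of all probe sets). Cd37 had the smallest p, with a difference of 1.90 after unpaired and 3.70 after paired training and an interaction of 1.80 ± 0.99 (95% interval from -0.43 to 4.03, adjusted p = 1.00). Coro1a came next at -0.66 ± 0.42, from differences of 1.50 ± 0.30 after unpaired and 0.84 ± 0.30 after paired training, neither of which passed (adjusted p = 0.0832 and 0.357); with the block the first passed and the second did not (0.00544 and 0.0593). The intervals are wide: that of Laptm5 ran from -1.17 to 0.52 and that of Mpeg1 from -0.83 to 0.85.

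**Figure D4:**
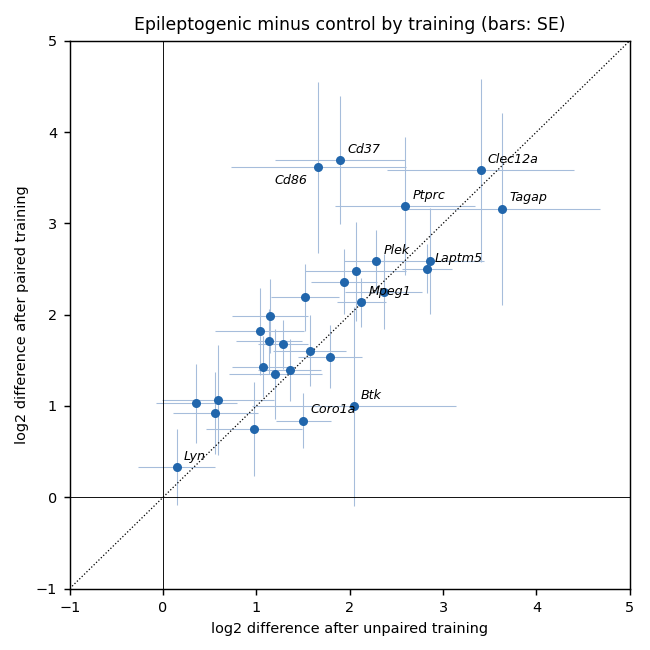
Log2 difference between epileptogenic and control arrays after unpaired (x axis) and after paired training (y axis) for the 29 tested members, with SE bars and a dotted line of equal differences. Points lie above 0 on both axes, and no member's departure from the line passed the interaction test.

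Paired against unpaired training called 0 of 29 members in all rats, in control rats alone and in epileptogenic rats alone (limma, each 0% of all probe sets, also with the block). At an unadjusted p under 0.05 there were 2, 2 and 0 members (1.15%, 1.68% and 1.22% of all probe sets), Cd37 and Lyz2 in each of the first pair of comparisons. Cd37 read 4.89 and 3.63 in control unpaired against 2.71 and 1.35 in control paired rats, and 6.14 and 6.18 against 5.31 and 6.14 in epileptogenic rats. Its difference over all rats was -1.33 ± 0.49 (unadjusted p = 0.0242, adjusted p = 1.00). That of Lyz2 was -0.71 ± 0.30 (unadjusted p = 0.0431, adjusted p = 1.00), and control paired A was its lowest array. In epileptogenic rats alone the smallest p belonged to Coro1a and Runx1, at -0.60 ± 0.30 and -0.56 ± 0.34 (adjusted p = 1.00 for both).

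Other genes of leukocyte signalling, none of them a member, were read beside the set. Of 74 listed genes 59 were measured and 42 tested, and 20 of the 42 were higher and 0 lower (31 and 0 with the block). Of all tested probe sets 2.81% were higher, and 7.58% with the block. The median log2 difference of the 42 was 1.27, with 38 above 0 and 4 below, Csf2rb at -0.53 ± 0.46 among the latter. Genes with a control mean under the filter level are not set apart in this list. Csf1r, the growth factor receptor that microglia depend on, was higher by 1.68 ± 0.29 (adjusted p = 0.0168), the transcription factor genes Irf8 by 2.15 ± 0.30 and Fli1 by 1.89 ± 0.19, and the adaptor gene Fyb1 by 2.62 ± 0.35. Clec7a, which encodes the glucan receptor dectin-1, was higher by 2.83 ± 0.49 (adjusted p = 0.0172). Sirpa, an inhibitory receptor that neurons also express, showed 0.10 ± 0.19 and did not pass (adjusted p = 0.822).

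Markers of the cells that could carry these transcripts moved unevenly. Of 7 tested genes of homeostatic microglia 5 were higher (6 with the block, adding Tmem119), beside 2.81% of all tested probe sets without the block. Their median difference of 1.68 is the value of Csf1r, which is also in the list of other signalling genes. Their summed signal was 1174 to 1665 in control and 3942 to 4955 in epileptogenic arrays. P2ry12 was higher by 1.75 ± 0.19, whereas Cx3cr1 showed -0.40 ± 0.58. For border and perivascular macrophages 1 of 3 tested genes was higher, Mrc1, which is also a member. Their summed signal was 241 to 507 in control and 601 to 986 in epileptogenic arrays, with Cd163, Folr2, F13a1, Ms4a7 and Pf4 under the filter level. Most of that sum is Mrc1 itself, so it is no reading of these cells apart from that member. Monocyte markers passed in 0 of 2 tested genes, and in 1 with the block, Plac8 at 1.33 ± 0.35 (adjusted p = 0.0732 and 0.0145 with the block; summed signal 189 to 218 and 220 to 520), with Ccr2 under the filter level.

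Defining genes of lymphocytes and neutrophils were at or near the dim end of the array in both conditions. Of 29 measured markers of T cells, B cells, natural killer cells and neutrophils 24 lay under the filter level, Cd3e, Cd3d, Cd3g, Cd8a, Ms4a1, Cd79b, Ncr1 and S100a8 among them. The summed signal of T cell markers was 261 to 352 in control and 341 to 370 in epileptogenic arrays, that of B cells 52.1 to 95.5 and 53.4 to 97.3, that of natural killer cells 139 to 244 and 73.5 to 188, and that of neutrophils 28.4 to 50.3 and 39.0 to 71.3. Il7r, the interleukin receptor of T cells, was the single one called without the block, higher by 1.27 ± 0.29 (adjusted p = 0.0463). With the block the natural killer cell gene Klrk1 was called lower as well, at -1.12 ± 0.36 (adjusted p = 0.132 and 0.0483 with the block). Red cell markers summed to 146 to 223 in control and 64.3 to 160 in epileptogenic arrays. In tissue RNA more phagocytes and more RNA per phagocyte cannot be told apart.

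**Figure D5:**
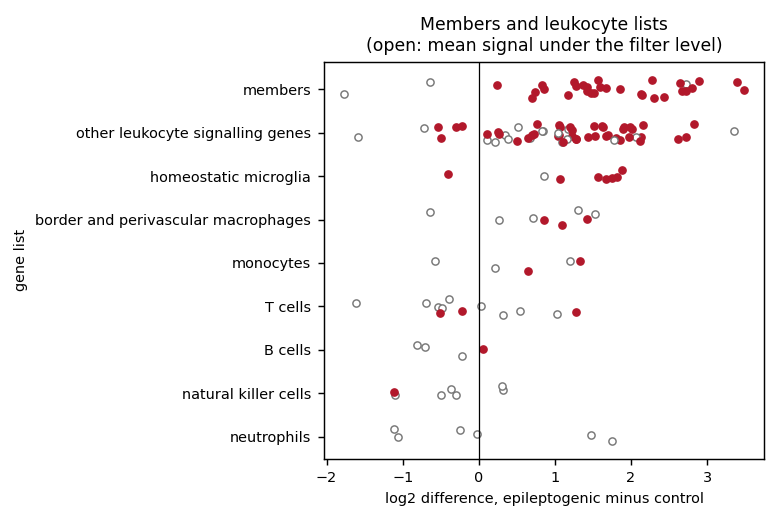
Log2 difference between epileptogenic and control arrays (x axis) for each gene of the set and of the leukocyte lists (rows; points are spread vertically for legibility, filled where the mean signal lay above the filter level and open where it did not). Most filled points of the members, of the other signalling genes and of homeostatic microglia lie above 1, while lymphocyte and neutrophil genes are mostly open and spread around 0.

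Among genes listed for excitatory neurons of the basolateral amygdala, Slc17a7, Neurod6, Neurod1, Lmo3, Camk2a and Snap25 lay above the filter level and Tbr1 under it. Of the 6 tested, Neurod6, Neurod1 and Lmo3 were lower in epileptogenic rats (4 with the block), beside 0.827% of all tested probe sets lower (8.65% with the block). The summed signal was 7988 to 13028 in control and 5704 to 9539 in epileptogenic arrays. Astrocyte genes were higher in 2 of 5, Gfap by 2.83 ± 0.29 and Aqp4 by 0.84 ± 0.16, beside 2.81% of all tested probe sets higher. Interneuron genes passed in 0 of 3, oligodendrocyte genes in 0 of 4, endothelial genes in 0 of 6 and striatal and central amygdala genes in 0 of 6 (0, 1, 2 and 1 higher with the block). The striatal and central amygdala genes summed to 2266 to 3944 in control and 1430 to 4212 in epileptogenic arrays. With 6 of those 7 genes above the filter level, the lists do not settle how pure the dissected tissue was. These shifts in neuronal and astrocytic genes accompany the higher leukocyte genes on the same arrays, and their part in the differences was not tested.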

How the data were processed

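Expression was measured on 8 Affymetrix rat genome arrays, 2 in each of 4 groups, with 16 rats in all. The deposited values are signal intensities per probe set on a linear scale, made by the authors with MAS5 per the submitters' processing notes; the version and the scaling target are not given in the sources used here. Signals were taken to log2 with no further normalization, and 57 control probe sets were left out. Of 31042 others, 18625 had a mean above the 40th percentile and entered a limma fit (version 3.58.1, R 4.3.3) of 4 group means with an intensity-dependent prior variance; tests were two-sided and adjusted by Benjamini-Hochberg at 0.05. SE and intervals come from that fit. The method was tested on simulated data with noise drawn independently for each array, so that test does not cover arrays that deviate together. Detection calls were not used.

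Gene names are those of the platform annotation. The labels call the arrays biological replicates. In each of the 6 pairs of groups, arrays with the same letter deviated together from their group means (correlation 0.321 to 0.407), so the letter was also entered as a block; this pairing comes from the data and not from the labels. The members, lists and tests were chosen with earlier results of these data known. Every member is named; every array is given for the 2 smallest p-values in each role and for each tested member that did not pass. Ptprc, the 3 untested members and the list genes named were added after their values were seen. In the other comparisons, members that passed are named, or otherwise the 2 smallest p-values. Lists are described by counts and medians. Figures were drawn with matplotlib 3.10.9.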

Additional observations from a re-analysis of the deposited data

Results flagged for a closer look

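In the 64 sets of 4 arrays looked at (each of the 32 measured members in epileptogenic and in control rats over both trainings), 3 held an array whose gap to its nearest neighbour passed Dixon's 95% critical share of the whole range. Chance gives about 1 in 20 such sets. Cd53 was highest in epileptogenic paired A, at a log2 signal of 7.09 against 6.55 to 6.63 in the other epileptogenic arrays (gap 0.847 of the range). Cd37 was lowest in epileptogenic paired A, at 5.31 against 6.14 to 6.18 (0.948 of the range). Lyz2 was highest in epileptogenic unpaired B, at 10.30 against 9.46 to 9.58 (0.852 of the range).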

How the results depend on the processing

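The count of 20 members higher in epileptogenic rats lay between 15 and 24 with the replicate block, quantile normalization, median centring, an offset of 16 added to the signal, no filter, a filter at the 60th percentile, no intensity trend, array weights and with probe sets averaged per gene. It was 13 on the A arrays and 25 on the B arrays alone, and 10 to 18 with single arrays left out. No tested member's difference over both trainings changed sign in any of these. The fits on the A or B arrays alone compared status and left training out. Among these alternatives, the share of all probe sets called is given only for the block and for no filter, so the other counts have no such share beside them. Without the trend Ptprc, Mrc1, Clec12a, Coro1a and Tagap lost the call, and median centring or quantile normalization lost Tagap. With probe sets averaged, Ptprc, Runx1 and Mpeg1 lost it and Cd86 fell under the filter level. Of the 8 second probe sets of members, 1 passed, 2 had the opposite sign to the first and 4 lay under the filter level. Median centring moved the median of all tested probe sets from -0.11 to -0.005. The 3 calls after unpaired training became 16 with the replicate block, 5 with the stricter filter, 1 when the unpaired arrays were fitted alone, and 0 with median centring or without the trend, and ranged from 0 to 4 with single arrays left out. The 6 calls after paired training became 19 with the block and 0 with median centring or without the trend, and ranged from 0 to 5. The causes were not tested. Over both trainings, the block changed no other member's call than Itgal, Cd86, Vav1 and Hcls1; it also added calls in the marker lists and within each training, as counted in the report. Every count for training and the interaction was 0 under each alternative run. Dim probe sets limit the precision: Itgam, Cd4 and Cd163 lay under the filter level, as did 3 of 4 control arrays of Cd37, Cd86, Ptpn6 and Tagap, 2 of Clec12a and Btk, and 1 of Vav1 and Aif1.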
